A study of Mus musculus with 4 samples.

Results

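The regions described here are broad H4K20me1 domains of a mouse mesenchymal stem cell population that have no counterpart in the region list of a clone derived from it. They were selected on the positions in the 2 lists, as all population regions at least 10000 bp wide that share 0 bp with every clone region, with chromosomes 11 and 13 left out. The rule gave 658 absent domains among 2999 equally broad population regions on 18 chromosomes, of 28166 regions in the whole population list. The other 2341 broad regions shared at least 1 bp with a clone region and are called overlapped domains. Because the members were chosen by these positions, the absent share and the distances to clone regions are descriptions and carry no test.

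H4K20me1 is histone H4 monomethylated at lysine 20. It is written by the methyltransferase Kmt5a, known also as Setd8 or PR-Set7, and its level in the nucleus rises and falls with the cell cycle. The mark typically spreads as wide blocks over the bodies of transcribed genes rather than as sharp peaks, and it is known to accumulate on the inactive X chromosome. Broad regions as defined here were still a minority of the population list, 2999 of 25001 regions on the chromosomes used.

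The series compared bone marrow mesenchymal stem cells of C57BL/6 mice in 2 forms, the mixed MSC21 culture and 4L.1.4, which is 1 clone isolated from it. Both were grown to confluence in stem cell medium, fixed and sonicated, and chromatin was immunoprecipitated with the same lot of an H4K20me1 antibody or with non-immune rabbit serum. This gave 4 libraries, of which the H4K20me1 library of each culture is used here, through its deposited list of regions. The lists give positions in the mouse build mm9 and no read count or enrichment, so the depth behind a region is unknown, and absence from the clone list means only that no region was called at that place. With 1 library per culture no difference could be set against the spread between replicates. All intervals below are exact 95% intervals of a share (Clopper-Pearson) or of a median (from order statistics). They cover counting error only and treat neighbouring regions as independent, which they are not. The identity of the cells could not be checked against marker genes, since the lists hold no genes, and the available gene table belongs to another build.

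Among broad population regions 21.9% were absent from the clone list (658 of 2999, interval 20.5 to 23.5%). Among population regions of any width on the same chromosomes the value was 66.4% (16602 of 25001), and among those narrower than 10000 bp it was 72.5%. A wide region offers more sequence to be overlapped than a narrow one, so these shares are not on equal terms. The absent domains together spanned 13754 kb of the 61366 kb in broad regions, or 22.4%. In the opposite direction 75 of 1790 clone regions of at least 10000 bp on these chromosomes (4.19%, 3.31 to 5.22%) shared no base with the population list. The clone list was the shorter, with 11809 regions against 28166, so the shares in the 2 directions are not on equal terms.

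Absent and overlapped domains had similar widths. The median was 16.0 kb for absent domains (interval 15.2 to 16.7 kb, quartiles 12.2 and 24.4 kb) and 16.7 kb for overlapped domains (16.3 to 17.1 kb, quartiles 12.8 and 23.8 kb). The absent median was the larger of the pair on 7 of 18 chromosomes. The absent share did not move in 1 direction with width. It was 25.8% (22.7 to 29.2%) at 10 to 12.5 kb, 21.4% (18.01 to 25.2%) at 12.5 to 15 kb and 19.5% (16.6 to 22.7%) at 15 to 20 kb. At 20 to 30 kb it was 19.2% (16.2 to 22.5%), at 30 to 50 kb 21.8% (17.6 to 26.6%), and from 50 kb on 31.2% (29 of 93, 22.0 to 41.6%). The plot of the absent share by width shows the highest points at both ends of the range. Of the 100 widest broad regions 31 were absent, of the 25 widest 9, and of the 10 widest 5.

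**Figure D1:**
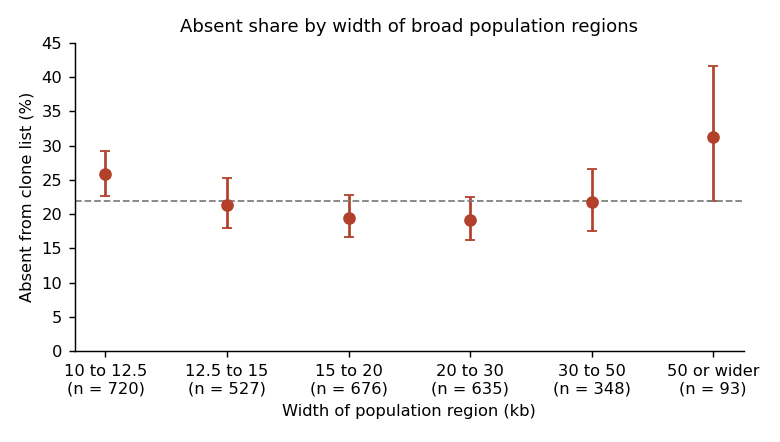
Share of broad population regions absent from the clone list (vertical axis, percent) by width class (horizontal axis, kb, with the number of regions), with exact 95% intervals that cover counting error. The dashed line is the share over all 2999 regions, 21.9%, and the shares lie between 19.2% and 31.2%.

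The width minimum cut through a continuous range of regions. The narrowest members, 10002, 10004 and 10013 bp wide, lay on chromosomes 6, X and 17, at 26.5, 67.5 and 31.2 kb from the nearest clone region. Just under the minimum, absent regions of 9995, 9993 and 9989 bp on chromosomes 18, 8 and 9 lay 70.8, 135 and 55.2 kb away. These regions on either side of the minimum overlapped in their distances.

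Most absent domains had a clone region within 100 kb on at least 1 side. The nearest clone region lay at a median of 29.4 kb from an absent domain (25.3 to 36.5 kb, quartiles 6.60 and 117 kb). It was within 1000 bp for 58 domains (8.81%, 6.76 to 11.2%), within 5000 bp for 140 (21.3%) and within 100 kb for 474 (72.0%). It was more than 1 Mb away for 18 (2.74%). Where clone regions lay on both sides, which held for 653 domains, the farther of them was at a median of 268 kb, and 30 domains (4.56%) had clone regions within 10 kb on both sides. A clone region lay within 10 kb on exactly 1 side of 170 domains (25.8%) and on neither side of 458 (69.6%). Within 100 kb, 182 domains (27.7%) had clone regions on both sides, 292 (44.4%) on 1 side and 184 (28.0%) on neither. In 130 of the 140 cases with a clone region within 5000 bp (92.9%, 87.3 to 96.5%), that clone region overlapped a different population region. Of all clone regions on these chromosomes 8928 of 10535 (84.7%, 84.0 to 85.4%) overlapped a population region. The clone regions nearest to the 140 domains had a median width of 4.38 kb (range 1.18 to 64.2 kb).

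The distances did not set the broad absent domains apart from narrower absent regions over most of the range. The 15944 absent population regions under 10000 bp lay at a median of 30.3 kb from the clone list (29.1 to 31.5 kb), against 29.4 kb. At the short end the curves of the cumulative plot separated, with 5.64% (5.29 to 6.01%) of the narrow regions within 1000 bp of a clone region against 8.81% of the broad domains. At 100 kb the shares were 73.8% and 72.0%.

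**Figure D2:**
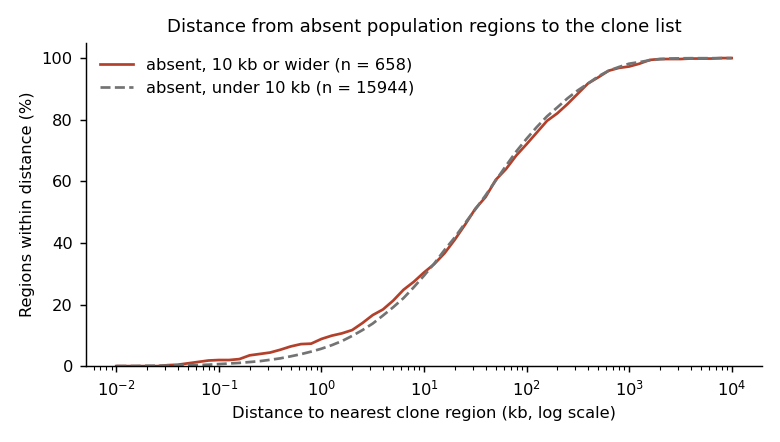
Cumulative share of absent population regions (vertical axis, percent) whose nearest clone region lies within the distance on the horizontal axis (kb, log scale), for the 658 broad domains (solid) and the 15944 narrower absent regions (dashed). The curves run together around their medians of 29.4 and 30.3 kb and differ at distances under a few kb.

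Within 100 kb of their edges, absent domains stood in more densely marked parts of the population profile, with other population regions closer by. The main setting for flanks was 500 kb, at which the medians were close, as given below. Another population region lay within 1000 bp of 462 absent domains (70.2%, 66.6 to 73.7%), and of 1262 overlapped domains (53.9%, 51.9 to 55.9%). The median gap to the nearest other population region was 274.5 bp (231 to 334 bp) and 779 bp (674 to 897 bp). Within 100 kb on each side, population regions covered a median of 218 kb per Mb around absent domains (194 to 231) and 149 kb per Mb around overlapped domains (142 to 157). This order held on 15 of 18 chromosomes. On chromosomes 16, 19 and X the absent value was the lower, at 119 against 176, 136 against 209 and 92.4 against 112 kb per Mb. The intervals over the 18 chromosomes treat domains that share flanks as independent, and no replicate library was there to test the difference.

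The excess of population sequence was local. It was followed outward from the domain edges, with sequence that flanks several domains counted for each of them. Between 2 and 5 kb from the domain edge population regions held 47.5% of the sequence around absent domains and 33.8% around overlapped domains. Between 20 and 50 kb the values were 27.3% and 18.1%, and between 100 and 200 kb they were 11.6% and 11.7%. From 500 to 1000 kb the order was turned, with 7.10% against 8.35%. Accordingly the medians for flanks of 500 kb, the main setting, were close, at 112 kb per Mb (104 to 119) and 106 kb per Mb (104 to 111). These intervals overlap.

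The clone list behaved differently in the same flanks. In the first 1 kb it held 2.91% of the sequence beside absent domains and 18.7% beside overlapped ones, a gap to which the rule itself contributes, since clone regions that overlap a domain can run over its edge. The clone value beside absent domains then rose to 10.1% at 5 to 10 kb, against 18.9%. At 20 to 50 kb the groups nearly met, at 9.65% and 9.86%, and farther out the value around absent domains was again the lower, with 6.87% against 8.19% at 50 to 100 kb. At 20 to 50 kb absent domains therefore had a similar amount of clone sequence around them as overlapped domains, beside more population sequence. Over flanks of 500 kb the clone medians were 43.2 kb per Mb (37.1 to 46.5) for absent domains and 56.9 kb per Mb (54.2 to 60.2) for overlapped domains.

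**Figure D3:**
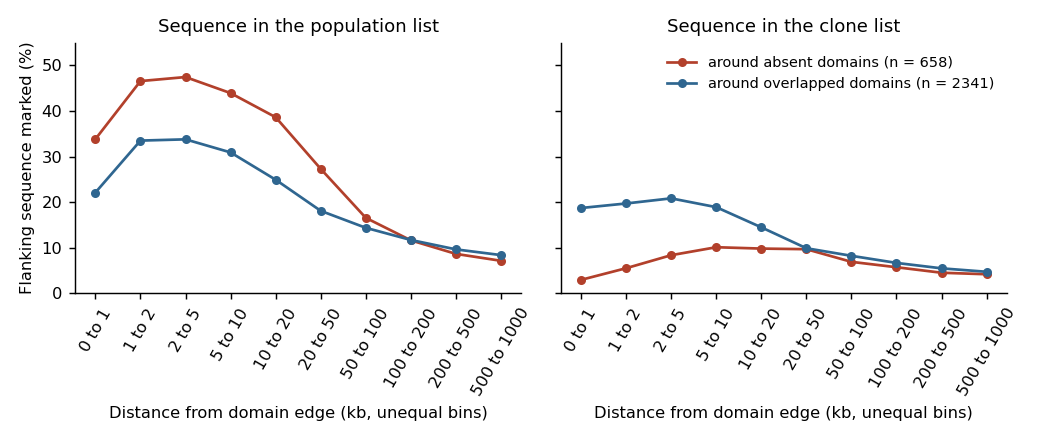
Percent of flanking sequence (vertical axis) inside population regions (left) and clone regions (right) by distance from the domain edge (horizontal axis, kb, bins of unequal size), for 658 absent and 2341 overlapped domains. Population sequence is denser around absent domains out to 100 kb, and clone sequence is sparser around them in every bin, by the least at 20 to 50 kb (9.65% and 9.86%).

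When population regions within 10 kb of each other were joined, most absent domains proved to be pieces of longer marked stretches. An absent domain lay in a stretch with a median length of 52.3 kb (48.8 to 58.3 kb) and made up a median of 43.5% of the population sequence in it. For overlapped domains these values were 36.8 kb (35.6 to 38.4 kb) and 65.9%. Only 59 absent domains (8.97%, 6.90 to 11.4%) were alone in their stretch, against 413 overlapped ones (17.6%, 16.1 to 19.2%). Stretches of at least 10 population regions held 154 absent domains (23.4%, 20.2 to 26.8%) and 260 overlapped domains (11.1%, 9.86 to 12.4%). The part of the division into pieces in these shares was not tested.

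The absent domains then fell into 2 kinds of similar number. For 295 of 658 (44.8%, 41.0 to 48.7%) the joined stretch held a clone region elsewhere along its length, and 171 domains (26.0%, 22.7 to 29.5%) shared their stretch with an overlapped broad domain. The remaining 363 domains (55.2%, 51.3 to 59.0%) lay in stretches without any clone region. The 658 domains occupied 523 stretches, of which 236 held a clone region. A further count took all 4146 joined stretches of at least 10 kb, also those made only of narrow regions, and not only the 523. In it absence fell with length up to 50 to 100 kb. The count by single regions did not fall in this way, but it covered broad regions only, a different set. A longer stretch offers more sequence to be overlapped, so the length classes are not on equal terms. Stretches of 10 to 20 kb lacked a clone region in 526 of 1548 cases (34.0%, 31.6 to 36.4%), those of 20 to 50 kb in 22.0% (20.1 to 23.9%) and those of 50 to 100 kb in 14.9% (12.1 to 18.2%). From 100 kb on the value was 18 of 123 (14.6%, 8.91 to 22.1%).

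The 10 widest absent domains showed both kinds, 5 in stretches with a clone region and 5 in stretches without. The widest, 167 kb on chromosome 5 (119010932 to 119177550), formed 82.3% of the population sequence of its stretch (202 of 203 kb marked in 4 regions, no clone region). The second, 145 kb on chromosome 8 (125419923 to 125565243), had 1 clone region of 8.56 kb at the side in a stretch of 165 kb. On chromosome 3 a domain of 111 kb (21976940 to 22087845) stood alone, with 4.69 kb per Mb of population sequence and no clone sequence within 500 kb on either side. Its flanks had the least population sequence of the 10. The domain of 91.9 kb on chromosome 5 (148242727 to 148334624) had 2 clone regions with 7.59 kb in its stretch of 101.7 kb.

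Further down the order, 84.2 kb on chromosome 14 (121693871 to 121778093) began 175 bp from the end of a clone region, and 67.2 kb on chromosome 5 (90727717 to 90794900) began 805 bp from one. In both cases the next clone region on the other side was more than 500 kb away, at 503 and 566 kb. Clone calls thus lay near the left edge of these 2 domains, and none lay over them or within 500 kb to the right. In the joined stretches the clone calls came to 5.355 kb in 2 regions on chromosome 14 and 14.3 kb in 3 regions on chromosome 5. A domain of 77.7 kb on chromosome 17 (30142446 to 30220194) was alone in its stretch, yet its 500 kb flanks were the most densely marked of the 10, at 287 kb per Mb for the population list and 125 for the clone list. On chromosome 8 a domain of 70.4 kb (46023521 to 46093968) was 1 of 14 population regions in a stretch of 117 kb without clone regions. On chromosome 1 a domain of 68.4 kb (153420670 to 153489095) lay in a stretch of 147 kb with 13 population regions and no clone region. The last, 64.9 kb on chromosome 1 (191552595 to 191617464), had 2 clone regions with 12.7 kb in its stretch and the nearest at 5.65 kb.

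The widest absent domain differed in size among chromosomes. Besides those already given, it spanned 61.7 kb on chromosome 2 (60654169 to 60715901), 51.6 kb on chromosome 4 (106630785 to 106682355) and 53.2 kb on chromosome 6 (31113231 to 31166477). Chromosome 7 had one of 60.8 kb (104729230 to 104790074), chromosome 9 one of 63.6 kb (61901734 to 61965307) and chromosome 10 one of 46.4 kb (85763254 to 85809693). On chromosomes 15 (61870510 to 61909272), 16 (17150943 to 17201163) and 19 (32832335 to 32894524) it was 38.8, 50.2 and 62.2 kb. The smallest of these maxima were 29.8 kb on chromosome 18, 22.8 kb on chromosome 12 (36855780 to 36878532) and 21.5 kb on the X chromosome (100655785 to 100677301).

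The domains farthest from any clone region ranged from 11.4 to 111 kb in width. Of the 10 farthest, 7 were under 20 kb wide, as were 431 of all 658 absent domains (65.5%). All 10 had no clone sequence within 500 kb on either side, which their choice by distance fixed in advance. Of the 10, 3 were alone in their joined stretch. The farthest 2 lay on the X chromosome. The first, 12.2 kb wide (82843263 to 82855498), was 7808 kb from a clone region on the left and 8208 kb on the right. The second, 11.4 kb wide (78323589 to 78334970), lay in the same clone-free part of the chromosome, 3288 kb from its left end. On chromosome 16 a domain of 11.5 kb (98289473 to 98300930) lay 1941 kb beyond the last clone region of that chromosome.

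Chromosome 3 held 4 of the 10. Besides the 111 kb domain, at 1922 kb, these were a neighbouring pair of 45.8 kb (80881344 to 80927132, 1483 kb away) and 14.9 kb (80859598 to 80874475, 1461 kb away), and a domain of 38.3 kb (16083751 to 16122052, 1473 kb away). The pair belonged to 1 joined stretch of 93.2 kb. The others lay on chromosome 1 (97210805 to 97222327, 11.5 kb wide, 1507 kb away), chromosome 15 (53165249 to 53177046, 11.8 kb, 1343 kb) and chromosome 19 (27292030 to 27310809, 18.8 kb, 1329 kb). The domain on chromosome 1 had no other population sequence within 500 kb, whereas that on chromosome 15 was 1 of 21 population regions in a stretch of 112 kb. Domains far from the clone list thus included both solitary regions and parts of dense population stretches.

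Some absent domains stood singly between clone regions and others in runs. The 658 domains lay in 499 intervals between consecutive clone regions, counting the chromosome ends, where 3 domains lay before the first clone region and 2 beyond the last. Of these intervals 387 held 1 absent domain and 112 held at least 2, which together contained 271 domains (41.2%, 37.4 to 45.1%). The share in runs depends on the width minimum, with 61.3% at 5000 bp, where most domains were in runs, and 12.3% at 20000 bp. There were 76 intervals with 2 domains, 29 with 3, 5 with 4, 1 with 5 and 1 with 7. The clone-free interval around a domain with clone regions on both sides had a median length of 345 kb (301 to 431 kb).

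The longest run, 7 absent domains, lay in a clone-free interval of 1209 kb on chromosome 6 (92922873 to 94131626). Its domains, 11.7 to 26.0 kb wide, were packed into 252 kb (93764894 to 94016494), and the interval held 32 population regions with 197 kb in all. On chromosome 1 an interval of 482 kb (16093973 to 16575853) held 5 domains of 10.1 to 16.4 kb, of which the first began 1.84 kb from the left clone region and the other 4 stood together from 359 kb on. Among the 5 intervals with 4 domains, the 3 with the most absent sequence lay on chromosome 17 (50328563 to 51270552, 942 kb) and on chromosome 1 (82231230 to 82722750, 492 kb, and 91499681 to 92501762, 1002 kb). Their absent domains came to 111, 100.3 and 60.1 kb. The last of these intervals was the most finely divided, with 52 population regions in it. In the map of these stretches the absent domains stand among narrower population regions and, apart from the first domain of the second interval, near each other, while much of each interval is empty in both lists.

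**Figure D4:**
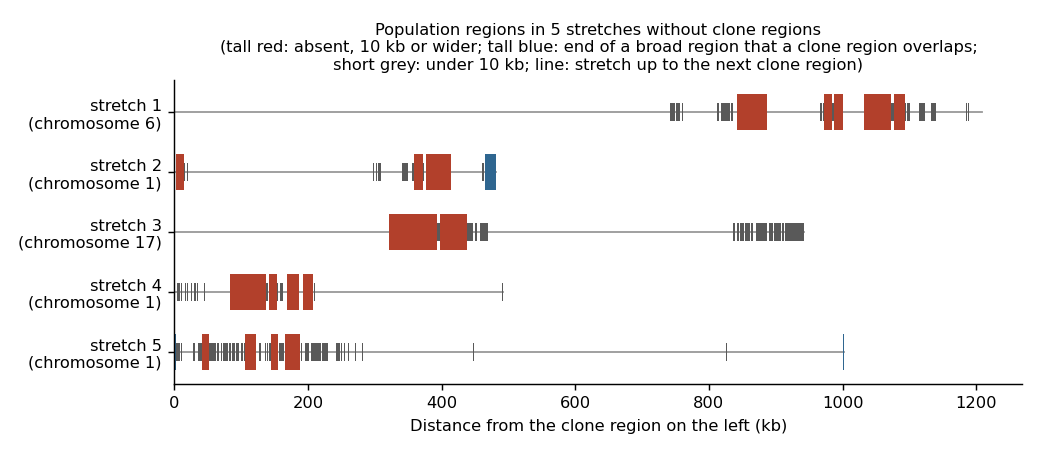
Population regions in the 5 intervals between consecutive clone regions that hold the most absent domains, by distance from the clone region on the left (horizontal axis, kb). Tall red blocks are absent domains, tall blue blocks the ends of broad regions that a clone region overlaps, short grey blocks narrower population regions, and the line ends at the next clone region. The 7 domains of the first interval lie within 252 kb of its 1209 kb.

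The absent share varied among chromosomes. At the width minimum used, and counted by regions, it was highest on chromosome 1, with 82 of 249 broad regions (32.9%, 27.1 to 39.1%), followed by chromosome 3 with 49 of 165 (29.7%, 22.8 to 37.3%), chromosome 17 with 56 of 189 (29.6%, 23.2 to 36.7%) and chromosome 6 with 62 of 215 (28.8%, 22.9 to 35.4%). At the same settings it was lowest on chromosome 2 with 26 of 220 (11.8%, 7.87 to 16.8%), and intervals below the share over all chromosomes were also found on chromosome 19 (16 of 117, 13.7%, 8.02 to 21.3%) and chromosome 7 (23 of 160, 14.4%, 9.34 to 20.8%). The other 11 chromosomes had intervals that included the overall 21.9%. The intervals of chromosomes 1 and 2 do not overlap. Which chromosome came first or last depended on the setting. The highest share was on chromosome 16 (40.8%) with a minimum of 5000 bp and on chromosome 17 with a minimum of 20000 bp (35.4%) or by covered base pairs (31.8%). The lowest was on chromosome 7 (20.7%) in the first of these settings and on chromosome 12 in the others (6.67% and 10.3%). Under these 3 settings chromosomes 1, 3, 6 and 17 kept shares above, and chromosomes 2, 7 and 19 below, the value over all chromosomes. Since regions cluster along a chromosome, these intervals are narrower than the true uncertainty.

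Absent domains were spread over many 10 Mb blocks of the chromosomes. With the 10 Mb block that held the most absent domains left out, a step added after seeing the data, the shares of chromosomes 1, 3, 17, 6 and 2 were 31.8%, 28.3%, 26.4%, 25.7% and 10.7%. Leaving out such a block tends to lower a share in any case, and no interval was computed for the reduced shares. The step therefore cannot show how far a share rested on 1 place. Absent domains were found in 187 of the 244 blocks that held any broad region, and the 5 blocks with at least 10 of them held 61. These lay on chromosome 6 (90000001 to 100000000, 13 of 24 broad regions absent), chromosome 17 (60000001 to 70000000, 13 of 26), chromosome 15 (80000001 to 90000000, 13 of 39), chromosome 1 (90000001 to 100000000, 12 of 29) and chromosome 5 (140000001 to 150000000, 10 of 30). Of 131 blocks with at least 10 broad regions, 10 had no absent domain and in 9 at least 50% of the broad regions were absent.

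**Figure D5:**
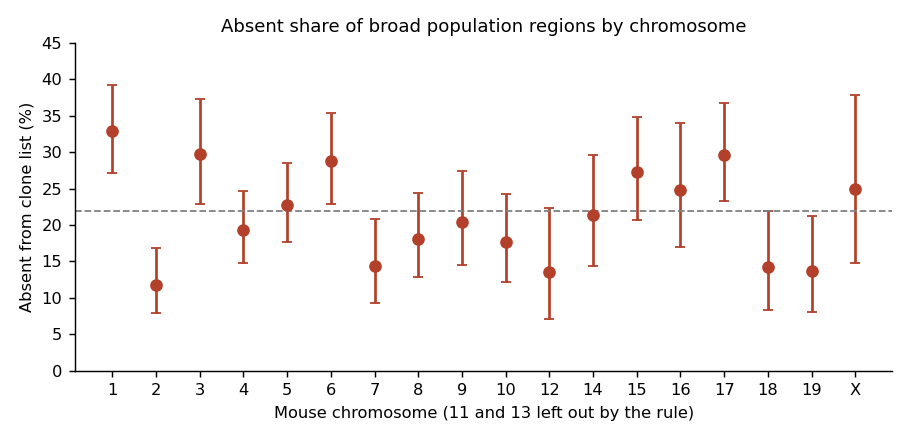
Share of broad population regions absent from the clone list (vertical axis, percent) on each of the 18 chromosomes used (horizontal axis), with exact 95% intervals that cover counting error. The dashed line is the share over all of them, 21.9%, and the values run from 11.8% on chromosome 2 to 32.9% on chromosome 1.

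Broad and narrow regions ranked the chromosomes alike only in part. Across the 18 chromosomes the absent shares of broad and narrow regions had a Pearson r of 0.36 and a Spearman rho of 0.30, given as a description, since both shares come from the same pair of libraries. On chromosomes 6 and 17 the absent share of narrow population regions was 68.8% and 67.2%, below the 72.5% over all narrow regions, while the absent share of broad regions was above its own overall value. Chromosome 5 showed the same order, with 61.3% of narrow and 22.7% of broad regions absent. On chromosome 12 the opposite was seen, with 76.1% of narrow regions and 13.5% of broad regions absent (12 of 89, 7.17 to 22.4%), although that interval includes the overall share. Chromosomes 4 and 9 went the same way as chromosome 12, with 75.1% and 79.5% of narrow and 19.3% and 20.4% of broad regions absent. On chromosomes 1, 3, 15, 16 and X both values were above the overall ones, with 76.1%, 83.3%, 84.2%, 85.2% and 85.7% of narrow regions absent. On chromosomes 2, 7, 8, 10, 18 and 19 both were below, with 70.5%, 65.8%, 61.8%, 64.5%, 70.7% and 71.6% of narrow regions absent. Chromosome 14 lay near both overall values, at 72.5% of narrow and 21.3% of broad regions. As on chromosome 12, the broad intervals of chromosomes 4, 5, 8, 9, 10, 14, 15, 16, 18 and X include the overall share. For these chromosomes the place of the broad share above or below it is within counting error.

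On the X chromosome, where this mark is known from the inactive copy in female cells, 15 of 60 broad regions were absent (25%, 14.7 to 37.9%), an interval that includes the overall share. With a minimum of 20000 bp it was 1 of 14 (7.14%), against 21.1% over all chromosomes used, a count too small to set the X chromosome apart. Of its narrow population regions 85.7% were absent, the highest value of the chromosomes used. The median width of its absent domains was 13.3 kb, against 16.0 kb for all absent domains, and it was lower on chromosomes 12 and 18 (12.2 kb on each). The median distance of its 15 absent domains to the clone list was 278 kb, the largest of any chromosome here. The next largest was 131 kb on chromosome 9, and the smallest was 10.8 kb on chromosome 5. The sex of the animals is not given in the labels used here.

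Most overlapped domains were covered by clone regions over much of their width. Clone regions covered a median of 88.4% of an overlapped domain (87.1 to 89.4%, quartiles 58.6 and 98.5%), and 1104 of 2341 (47.2%) were covered to at least 90%. Coverage was under 50% for 501 (21.4%, 19.8 to 23.1%), under 10% for 47 (2.01%, 1.48 to 2.66%) and under 1% for 2. In 1406 cases (60.1%) 1 clone region accounted for the overlap. The broad population regions thus showed few cases between 0% and 10% covered, compared with the 658 at 0%. A coverage that small needs a short clone region or one that only reaches over an edge. Coverage is also what the rule selected on, so this is a description.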

How the data were processed

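The authors deposited 2 lists with 3 columns each (chromosome, start and end in bp), and no count, signal or score. Per the submitters' processing notes, CASAVA 1.8.1, Bowtie and mm9 were used, with no role given. How regions were called, and whether against the serum libraries, is not stated in the labels. A list named for a culture was read as that culture's H4K20me1 regions. Starts were read as counted from 0 and are printed counted from 1.

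Overlap was at least 1 bp. Distances are the bases between regions, and flanks stop where the outermost regions of a chromosome lie. Python 3.11.15, numpy 2.4.6 and scipy 1.17.1 were used, and the interval functions were checked on simulated data. Regions named are the 10 widest absent domains, the 10 farthest from the clone list, the widest per chromosome, the 5 clone-free intervals with the most absent domains (ties by absent sequence) and the neighbours of the width minimum. Blocks of 10 Mb and the domains joined within 10 kb were chosen after their values were seen. The members and lists were chosen with earlier results of these data known.

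Genes and sequences were not assigned. The gene table and promoter sequences at hand are of GRCm38.p6, in which 121 population regions of chromosome 7 lie beyond the last gene, so the build differs from mm9. The planned gene lists were therefore not counted.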

Additional observations from a re-analysis of the deposited data

How the results depend on the processing

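The absent share of 21.9% was 30.4% with a minimum width of 5000 bp, 23.5% when regions covered to under 10% were counted as absent, and 20.01% and 15.3% when no clone region could lie within 1000 or 10000 bp either. It was 23.5% after joining population regions within 1000 bp and 25.3% after joining within 10000 bp, the latter added after seeing the data. Both joined counts also took in regions that reached the width minimum only through joining, so their base differs. A minimum of 20000 bp, all chromosomes, autosomes alone and covered base pairs left it within its interval. Median widths of absent and overlapped domains were 29.0 and 27.5 kb with a minimum of 20000 bp, which turned their order, and the overlapped median was 18.9 kb after joining within 1000 bp. With flanks of 100 kb, population coverage was 218 and 149 kb per Mb and clone coverage 50.1 and 77.5 kb per Mb. With flanks of 1000 kb, population coverage was 87.5 and 94.0 kb per Mb, turning the order, and clone coverage around overlapped domains 50.3 kb per Mb. With a minimum of 20000 bp, clone coverage around absent domains was 47.9 kb per Mb, and population coverage was 108.5 against 108.7 kb per Mb. The share of domains in runs was 61.3% with a minimum of 5000 bp and 12.3% with 20000 bp, which leave more and fewer domains to form runs. On the X chromosome it was 7.14% absent (1 of 14) with a minimum of 20000 bp. Of 68 recomputed autosome shares 15 left their interval, 11 of them with a minimum of 5000 bp and 4 with 20000 bp, among them chromosome 1 at 26.1%. The cause of these shifts was not tested. The unknown depth limits every statement on absence. No paired analysis was possible because there was 1 library in each group.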

Other observations

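Joined population stretches without any clone region reached lengths close to that of the stretch around the widest absent domain, which spanned 203 kb. The next longest, chosen after their values were seen, lay on chromosome 1 (91528253 to 91729807, 202 kb, 37 population regions with 155 kb), chromosome 9 (68608529 to 68802007, 193 kb, 45 regions with 134 kb), chromosome 10 (13687856 to 13839663, 152 kb, 28 regions with 117 kb) and chromosome 16 (50282166 to 50430007, 148 kb, 30 regions with 112 kb). The nearest clone regions were at 28.6, 504, 419 and 401 kb. In these 4 stretches the population mark was called in many pieces, whereas the stretch around the widest domain held 4.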
